A study of Mus musculus with 9 samples.

Results

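The enzymes and regulators that make fatty acids, cholesterol and triglyceride were compared in 3 cell populations of the mouse mammary gland: Lgr5+ basal cells, Lgr5- basal cells and luminal cells. The set was a list of 39 named genes, covering acetyl-CoA supply, fatty acid synthase and its partners, desaturases and elongases, the SREBP regulators, the sterol enzymes and the acyltransferases of triglyceride assembly. Every probe of the array table that carried one of these names, written there in capitals (DGAT2, SCD1, FDPS, SQLE and so on), was taken. Of the 39 genes, 35 had a probe under that name, and 31 were tested because a probe was detected (a detection value above 0.99) on at least 3 of the 9 arrays. They stand among 12670 tested genes of the 30774 gene names in the table.

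Cells were sorted by flow cytometry from mammary glands of 10-week-old virgin C57BL/6 mice, and RNA was hybridised to Illumina mouse whole-genome BeadChips with 3 arrays per population. All 3 populations came from mice of the genotype Lgr5-GFP-IRES-CreERT2, a knock-in that places a green fluorescent protein and a tamoxifen-inducible Cre recombinase at Lgr5, the gene of an R-spondin receptor. The label for Lgr5 status of the luminal samples reads "wild-type". How the gates were set and how many mice went into a pool is not stated in the labels. Each pool number, 1 to 3, occurs once in each population, and the p-values below reflect how much pools of sorted cells differ, with a pool being the replicate of that number.

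Mammary epithelium has an inner luminal layer, which makes milk and its fat after pregnancy, and an outer basal layer of contractile cells. Lipid synthesis starts from cytosolic acetyl-CoA: one branch builds palmitate, which is then elongated, desaturated and esterified to glycerol, and the other builds mevalonate, squalene and cholesterol. SREBP transcription factors, carried out of the endoplasmic reticulum by Scap and held back there by the Insig proteins, raise the transcription of many genes of both branches when sterols are low.

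Between 33.6% and 38.5% of the 45281 probes were detected per array, and mean raw intensity ran from 428.1 to 654.4. Lgr5 itself, on the log2 intensity scale used throughout, measured 9.78, 9.83 and 10.65 in Lgr5+ basal cells, 8.24, 8.14 and 8.94 in Lgr5- basal cells and 4.72, 5.13 and 5.15 in luminal cells, where its probe was not detected. The mean of 10 basal markers was 11.99 to 12.14 on Lgr5+ basal arrays, 12.16 to 12.21 on Lgr5- basal arrays, and 6.79, 8.63 and 6.62 on the luminal arrays. Luminal replicate 2 therefore stood apart, with Krt14 at 12.10 against 8.95 and 9.46 on the other luminal arrays. All 11 luminal markers were lower in both basal populations.

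Markers of other cell types were also read, and their part in the results was not tested. Of 8 fibroblast markers, 6 were higher in Lgr5+ basal and 5 in Lgr5- basal cells than in luminal cells, and 0 were lower. Their mean was 6.61 to 7.08 on Lgr5+ basal, 6.59 to 6.83 on Lgr5- basal and 5.76 to 5.97 on luminal arrays. Of 5 tested endothelial markers, 2 were higher and 0 lower in Lgr5+ basal cells, and 2 higher and 1 lower, Vwf, in Lgr5- basal cells, while Kdr and Erg were detected on 0 of 9 arrays. The endothelial mean was 7.35, 8.88 and 6.87 on the Lgr5+ basal arrays, 7.41 to 7.66 on Lgr5- basal arrays and 6.51 to 7.27 on luminal arrays, so that Lgr5+ basal replicate 2 stood above the rest. Of 3 tested haematopoietic markers, 1, Cd3e, was higher in both basal populations and lower in Lgr5+ than in Lgr5- basal cells, and Ptprc and Itgam were detected on 0 of 9 arrays. The haematopoietic mean was 5.85 to 6.67 on Lgr5+ basal, 6.12 to 6.54 on Lgr5- basal and 5.10 to 5.72 on luminal arrays.

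Of 11 adipocyte markers, Fabp4, Plin1 and Cidec were detected on 0 of 9 arrays and Adipoq on 2, and the 3 that were tested went different ways. Cfd measured 8.12, 8.90 and 6.37 in Lgr5+ basal cells, 4.84, 4.75 and 4.75 in Lgr5- basal cells, where it was not detected, and 5.19, 4.46 and 5.44 in luminal cells. It was at least 5.45-fold higher in Lgr5+ than in Lgr5- basal cells, a bound against the lowest detected signal of each array (adjusted p 0.0225). Lep measured 5.88, 7.25 and 6.77 in Lgr5+ basal, 7.04, 7.65 and 8.29 in Lgr5- basal and 5.06, 5.92 and 4.61 in luminal cells, and was higher in both basal populations. Lipe measured 5.52, 5.29 and 5.05 in Lgr5+ basal, 5.49, 5.01 and 5.30 in Lgr5- basal and 6.81, 6.48 and 6.15 in luminal cells, and was lower in both. The summed log2 level of these 3 genes, in which the opposite differences offset each other, ranged from 18.2 to 21.4 in Lgr5+ basal, 17.4 to 18.3 in Lgr5- basal and 16.2 to 17.1 in luminal cells.

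With 1 exception, Elovl5, the lipid synthesis genes that passed the test against luminal cells were lower in basal cells. In Lgr5+ basal cells 16 of the 31 genes were lower and 1 was higher, as called by limma at an adjusted p under 0.05, while among all tested genes 24.2% were lower and 24.6% higher (48.8% called in either direction). In Lgr5- basal cells 15 of 31 were lower and 1 was higher, against 22.5% lower and 21.7% higher among all genes (44.2% called). Gpam (lower in both) and Idi1 (lower in Lgr5+ basal cells) met the detection rule only with the luminal arrays, where they were higher. Their lower calls are therefore not independent of that rule. The median log2 difference of the 31 genes was -0.72 for Lgr5+ basal minus luminal and -0.62 for Lgr5- basal minus luminal, beside -0.01 and -0.02 for all genes. Both comparisons use the same luminal arrays. In both, 14 of 31 genes were lower, where 19.4% of all genes were, and 1 gene, Elovl5, was higher, where 19.2% of all genes were. With arrays centred on their medians in place of quantile normalization, 9 genes were lower in Lgr5+ basal cells (Acss2, Scd1, Elovl1, Elovl6, Mvd, Fdps, Sqle, Nsdhl and Dgat2), 9 in Lgr5- basal cells (the same with Scap in place of Acss2) and 0 were higher. With that centring 1831 of all 12670 genes were lower in Lgr5+ basal and 1759 in Lgr5- basal cells. On BeadChip 1 alone (pools 1 and 2), 13 of the 31 were lower in each basal population. Of all 12670 genes, 2809 were lower in Lgr5+ basal and 2423 in Lgr5- basal cells on that BeadChip. The 13 in Lgr5- basal cells included Idi1 and Gpat4, which had not passed for Lgr5- basal cells on all 9 arrays. Insig2, Hsd17b7 and Elovl5 in both, Scap in Lgr5+ basal, and Sc5d and Gpam in Lgr5- basal cells kept their direction on BeadChip 1 without passing. Fibroblast markers had a median log2 difference of 0.97 for Lgr5+ basal and 0.91 for Lgr5- basal minus luminal. Of the 3 tested adipocyte markers, 2 were higher and 1 lower in Lgr5+ basal, and 1 higher and 1 lower in Lgr5- basal cells. Whether other cell types played a part in the lower calls was not tested. In sorted bulk RNA, fewer cells that express a gene and less RNA per cell cannot be told apart.

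Between the basal populations no member passed the test. Of the 31 genes, 0 were higher and 0 lower in Lgr5+ basal cells (limma, adjusted p under 0.05), where 0.481% of all genes were higher and 0.521% lower (1.00% called). On the brightest probes 2 were at an unadjusted p under 0.05, Scd1 and Cyp51, both with the lower value in Lgr5+ basal cells. Of all genes 14.0% were at that level. Dimmer probes of Sqle (-1.71), Insig1 (-0.84 and -0.62), Nsdhl (-0.82 and -0.74) and Elovl1 (-0.74 and -0.57) were also at that level. All of these had the lower value in Lgr5+ basal cells, and none passed after adjustment over all detected probes. Several were at or near background there. The Insig1 probe at -0.84 was detected on 0 Lgr5+ basal arrays and gave no bound. The Insig1 probe at -0.62 and the Nsdhl probe at -0.82 were detected on 1 Lgr5+ basal array each. The Sqle probe and the Nsdhl probe at -0.74 were detected on 2 each. The median difference, Lgr5+ minus Lgr5- basal, was -0.14 for the members and 0.02 for all genes.

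**Figure D1:**
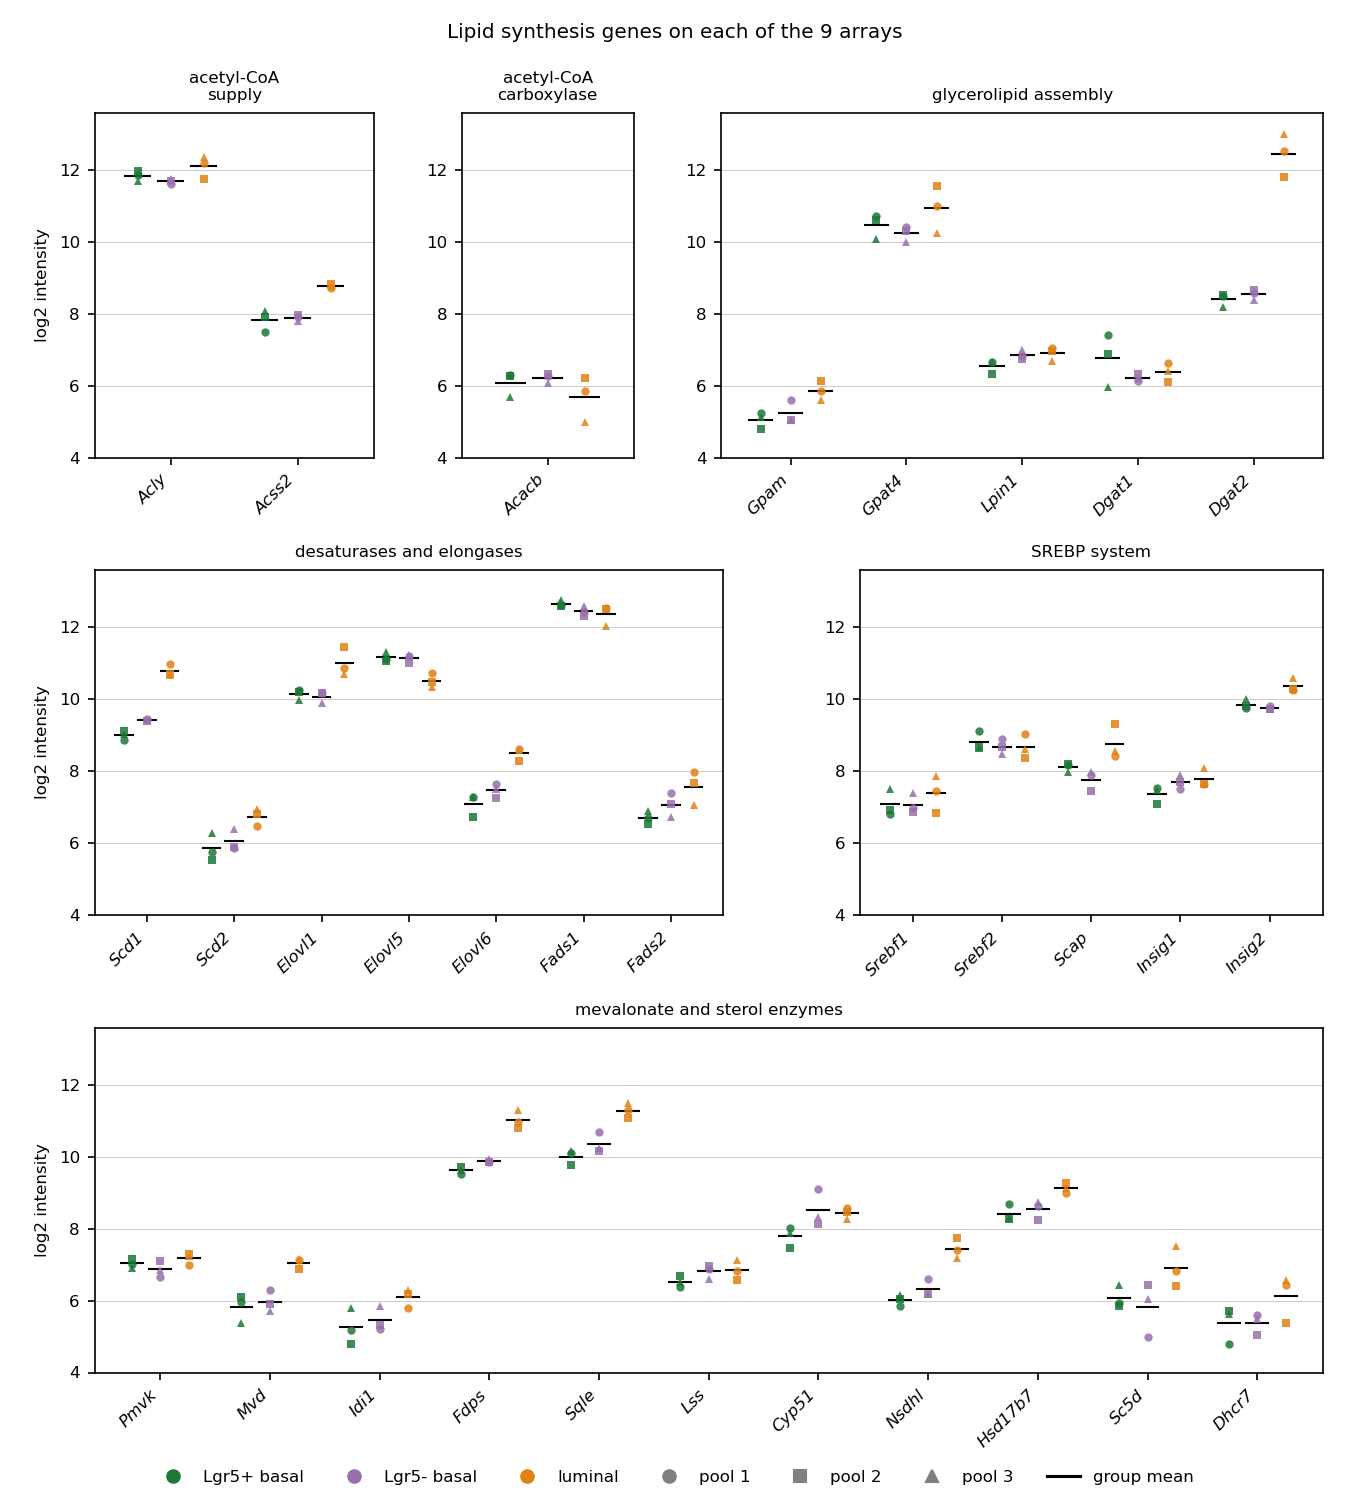
Deposited log2 intensity (vertical axis) of the 31 tested lipid synthesis genes on each of the 9 arrays, grouped by role. Colours mark Lgr5+ basal, Lgr5- basal and luminal cells from left to right, symbols the pool, and lines the mean of 3 arrays. Dgat2 lay at 8.19 to 8.52 in Lgr5+ basal cells, 8.39 to 8.65 in Lgr5- basal cells and 11.80 to 12.99 in luminal cells.

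Of the genes that supply acetyl-CoA, 1 of 2 was lower in each basal population. Acss2 makes acetyl-CoA from acetate, and measured 7.51, 7.91 and 8.07 in Lgr5+ basal cells, 7.91, 7.95 and 7.80 in Lgr5- basal cells and 8.72, 8.81 and 8.78 in luminal cells. Every basal array was below every luminal array. The log2 difference from luminal was -0.94 for Lgr5+ basal (SE 0.172, adjusted p 0.00102) and -0.88 for Lgr5- basal (SE 0.172, adjusted p 0.00166), a level 1.92-fold and 1.84-fold lower.

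Acly, the enzyme that splits citrate into acetyl-CoA and oxaloacetate, did not pass in either comparison. Its means were 11.84 ± 0.14 in Lgr5+ basal, 11.68 ± 0.06 in Lgr5- basal and 12.11 ± 0.31 in luminal cells (SD, n = 3), with luminal replicate 2 at 11.76 beside 12.20 and 12.37. Without that luminal array both differences passed, at -0.44 for Lgr5+ basal (adjusted p 0.0416) and -0.60 for Lgr5- basal (adjusted p 0.0119). Me1, which makes NADPH for synthesis, was not in the table under that name. Its RefSeq synonym Mod1, looked up after the first results were seen and not counted among the 31, was lower in both basal populations, at 7.30, 6.57 and 7.34 in Lgr5+ basal, 6.99, 6.82 and 7.28 in Lgr5- basal and 8.37, 8.37 and 8.52 in luminal cells. The log2 differences from luminal were -1.35 for Lgr5+ basal (adjusted p 5.14e-04) and -1.39 for Lgr5- basal (adjusted p 4.35e-04).

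The step that builds palmitate was hardly measured. The single probe of Fasn, fatty acid synthase, was detected on 0 of 9 arrays, as were the probes of Thrsp, a protein that promotes lipogenesis, and Olah, the thioesterase that releases medium-chain fatty acids from the synthase in the mammary gland. Acaca, the cytosolic acetyl-CoA carboxylase, was not analysed here under its own name. Its RefSeq synonym A530025K05Rik, looked up in the same way as Mod1, had a probe detected on 0 of 9 arrays. Undetected probes give no order between the populations. Acacb, the acetyl-CoA carboxylase at mitochondria whose product restrains fatty acid import, was the 1 tested gene of this group. It measured 6.29, 6.28 and 5.67 in Lgr5+ basal, 6.28, 6.33 and 6.06 in Lgr5- basal and 5.84, 6.21 and 4.98 in luminal cells. The populations overlapped, and neither the difference of 0.41 for Lgr5+ basal minus luminal (adjusted p 0.284) nor that of 0.55 for Lgr5- basal minus luminal (adjusted p 0.16) passed. Once pool was fitted as a replicate block the second one passed (adjusted p 0.0440), and without luminal replicate 2 it was 0.82 (adjusted p 0.0465).

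Desaturases and elongases, which shape the finished fatty acids, held calls in both directions. Of 7 tested, 5 were lower and 1 higher in Lgr5+ basal cells, and 4 were lower and 1 higher in Lgr5- basal cells, against luminal cells. Of all genes, 24.2% were lower and 24.6% higher in Lgr5+ basal, and 22.5% and 21.7% in Lgr5- basal cells.

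Scd1 places the double bond that turns stearate into oleate. It measured 8.86, 9.12 and 9.02 in Lgr5+ basal cells, 9.47, 9.39 and 9.42 in Lgr5- basal cells and 10.97, 10.71 and 10.68 in luminal cells. The 3 populations did not overlap, with Lgr5+ basal lowest and luminal highest. Against luminal cells Scd1 was 3.45-fold lower in Lgr5+ basal cells (log2 difference -1.79, SE 0.152, adjusted p 3.79e-06) and 2.57-fold lower in Lgr5- basal cells (-1.36, SE 0.152, adjusted p 3.10e-05). The difference between the basal populations was -0.43, with -0.60, -0.28 and -0.40 in pools 1, 2 and 3, and did not pass (p 0.0183, adjusted p 0.234).

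Scd2, a second desaturase of the same family, measured 5.75, 5.53 and 6.28 in Lgr5+ basal, 5.86, 5.90 and 6.40 in Lgr5- basal and 6.48, 6.80 and 6.94 in luminal cells. All luminal arrays were above all basal arrays, though the highest Lgr5- basal value was close to the lowest luminal one. The log2 differences were -0.89 for Lgr5+ basal (SE 0.235, adjusted p 0.00975) and -0.69 for Lgr5- basal (SE 0.235, adjusted p 0.0361). The second call is open to single arrays: it was lost when replicate 1 or 2 of the Lgr5- basal arrays, or replicate 2 or 3 of the luminal arrays, was left out. For Scd2 in Lgr5- basal cells it was also lost without background correction (-0.26, adjusted p 0.0586) and with no filter on dim probes (adjusted p 0.0686).

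Elovl6 elongates palmitate to stearate, the substrate of Scd1. Levels were 7.28, 6.71 and 7.29 in Lgr5+ basal, 7.64, 7.26 and 7.52 in Lgr5- basal and 8.63, 8.28 and 8.60 in luminal cells. No basal array reached the luminal range, and Elovl6 was 2.66-fold lower in Lgr5+ basal cells (-1.41, SE 0.204, adjusted p 2.04e-04) and 2.04-fold lower in Lgr5- basal cells (-1.03, SE 0.204, adjusted p 0.00183). Within pools, Lgr5+ minus Lgr5- basal was -0.36, -0.54 and -0.23 (adjusted p 0.454).

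Elovl1 elongates saturated and monounsaturated acids to very long chains. Its brightest probe measured 10.27, 10.21 and 9.97 in Lgr5+ basal, 10.18, 10.17 and 9.89 in Lgr5- basal and 10.88, 11.46 and 10.70 in luminal cells. Luminal replicate 2 held the highest value, but the groups were separate without it too. The differences were -0.86 for Lgr5+ basal (SE 0.211, adjusted p 0.00620) and -0.93 for Lgr5- basal (SE 0.211, adjusted p 0.00427). Of its 4 detected probes, tested over all 17712 detected probes, 3 were lower in Lgr5+ basal cells and 4 in Lgr5- basal cells, and the remaining probe differed by -0.51 (adjusted p 0.0677).

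Elovl5, which elongates polyunsaturated fatty acids, went the other way. Its levels were 11.12, 11.08 and 11.31 in Lgr5+ basal cells, 11.20, 11.01 and 11.23 in Lgr5- basal cells and 10.74, 10.48 and 10.34 in luminal cells. Every basal array was above every luminal array, and the level was 1.57-fold higher in Lgr5+ basal (0.65, SE 0.163, adjusted p 0.00735) and 1.54-fold higher in Lgr5- basal cells (0.62, SE 0.163, adjusted p 0.00980). Both calls were lost with median centring (adjusted p up to 0.195 over the alternatives) or within BeadChip 1 alone.

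Fads2 and Fads1 are the desaturases that act with Elovl5 on polyunsaturated fatty acids. Fads2 measured 6.71, 6.52 and 6.89 in Lgr5+ basal, 7.41, 7.08 and 6.71 in Lgr5- basal and 7.98, 7.66 and 7.06 in luminal cells. Only the Lgr5+ basal arrays were all below the luminal ones, and that difference passed (-0.86, SE 0.256, adjusted p 0.0177) while the one of Lgr5- basal cells did not (-0.50, adjusted p 0.143). The difference between these basal populations was -0.36 (adjusted p 0.596). The Fads2 call in Lgr5+ basal cells was lost when Lgr5+ basal replicate 2 or luminal replicate 1 or 2 was left out, and its second probe did not pass (-0.22, adjusted p 0.609). Fads1 averaged 12.66 ± 0.10 in Lgr5+ basal, 12.45 ± 0.13 in Lgr5- basal and 12.37 ± 0.27 in luminal cells (SD, n = 3) and passed in neither comparison.

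**Figure D2:**
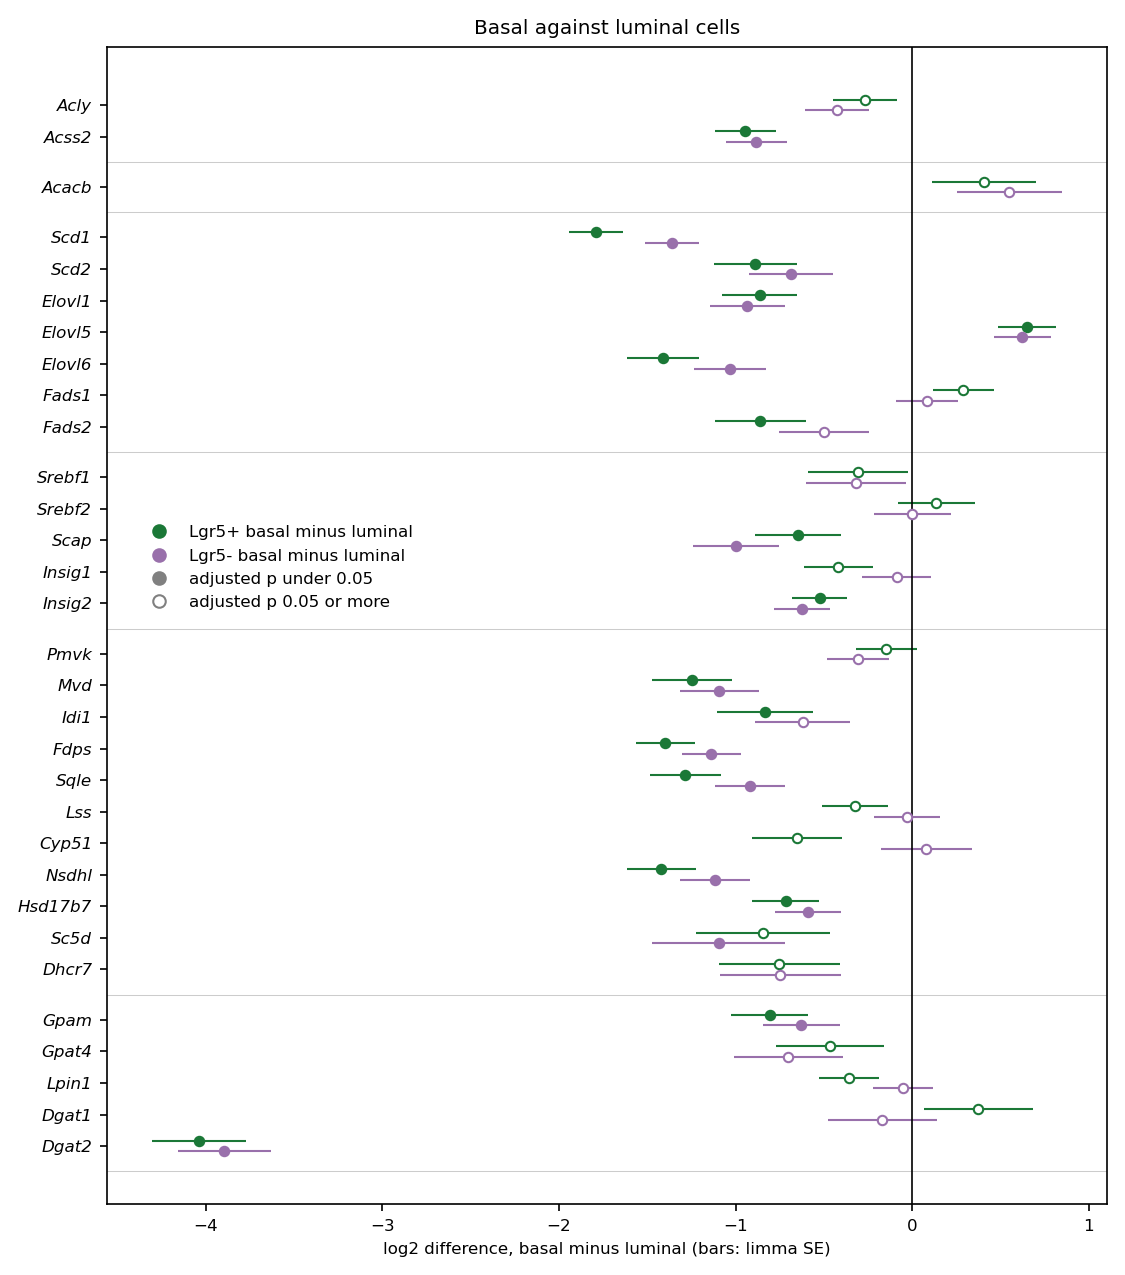
Log2 difference (horizontal axis) of each tested gene for Lgr5+ basal minus luminal, drawn above Lgr5- basal minus luminal. Bars are the limma SE, filled points passed an adjusted p of 0.05, and lines part the roles. Points lie left of 0 for 26 of 31 genes in each comparison, with Dgat2 farthest left at -4.04 and -3.89 and Elovl5 the filled pair right of 0.

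The SREBP system came next, with 5 tested genes, of which 2, Scap and Insig2, were lower than luminal in each basal population and 0 were higher, beside 24.2% and 22.5% of all genes lower. Neither transcription factor passed. Srebf1, whose products act mainly on fatty acid genes, averaged 7.08 ± 0.38 in Lgr5+ basal, 7.07 ± 0.29 in Lgr5- basal and 7.39 ± 0.51 in luminal cells (SD, n = 3). Srebf2, which acts mainly on cholesterol genes, averaged 8.81 ± 0.27 in Lgr5+ basal, 8.68 ± 0.21 in Lgr5- basal and 8.68 ± 0.33 in luminal cells (SD, n = 3). SREBP activity is set by cleavage of the protein, which an array of RNA does not measure.

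Scap, the escort of SREBP, measured 8.19, 8.19 and 7.98 in Lgr5+ basal cells, 7.90, 7.44 and 7.97 in Lgr5- basal cells and 8.42, 9.31 and 8.57 in luminal cells. All 3 populations were separate, the basal ones barely so, with luminal replicate 2 far above the other luminal arrays. The difference from luminal was -0.997 for Lgr5- basal (SE 0.243, adjusted p 0.00660) and -0.65 for Lgr5+ basal (SE 0.243, adjusted p 0.0477). The second of these was lost under 13 of 20 alternatives: the adjusted p was 0.0641 in the fit that had the pool as a replicate block and 0.142, at a difference of -0.38, without luminal replicate 2. It was also lost without any 1 of 5 basal arrays, Lgr5+ basal replicates 1, 2 and 3 and Lgr5- basal replicates 1 and 3. For Lgr5- basal cells the difference was -0.73 without luminal replicate 2 (adjusted p 0.0146).

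Insig2, which retains the Scap complex in the endoplasmic reticulum, measured 9.75, 9.81 and 10.00 in Lgr5+ basal, 9.81, 9.74 and 9.72 in Lgr5- basal and 10.25, 10.29 and 10.60 in luminal cells. All basal values were below all luminal values, and the difference was -0.52 for Lgr5+ basal (SE 0.158, adjusted p 0.0184) and -0.62 for Lgr5- basal (SE 0.158, adjusted p 0.00810). A second detected probe gave larger differences of -1.21 for Lgr5+ basal (adjusted p 2.28e-04) and -0.88 for Lgr5- basal (adjusted p 0.00223). The Lgr5+ basal call of the brightest probe was lost when Lgr5+ basal replicate 1 or 2 or luminal replicate 3 was left out.

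Insig1, itself a target of SREBP, gave different answers by probe. Its brightest probe averaged 7.37 ± 0.25 in Lgr5+ basal, 7.70 ± 0.19 in Lgr5- basal and 7.79 ± 0.26 in luminal cells (SD, n = 3) and did not pass for Lgr5+ basal minus luminal (-0.42, adjusted p 0.102). A dimmer probe, detected on 1 Lgr5+ basal, 3 Lgr5- basal and 3 luminal arrays, did (-0.77, adjusted p 0.0364). The dimmest was detected on 0 Lgr5+ basal, 2 Lgr5- basal and 2 luminal arrays, and was at least 1.25-fold lower in Lgr5+ basal than in luminal cells (adjusted p 0.00146). Without the luminal arrays the dimmest probe would not have met the detection rule, and its call is not independent of that rule. None of the 3 passed for Lgr5- basal minus luminal.

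The sterol enzymes, the largest role in the list, were called in 1 direction. Of 11 tested, 6 were lower in Lgr5+ basal cells and 6 in Lgr5- basal cells than in luminal cells, and 0 were higher, beside 24.2% and 22.5% of all genes lower. The median log2 difference was -0.83 for Lgr5+ basal and -0.75 for Lgr5- basal. Hmgcs1, at the entry of the branch, and Fdft1, squalene synthase, were not analysed here, and no RefSeq synonym of either was found among the probe names. The probe of Mvk, mevalonate kinase, was detected on 0 of 9 arrays.

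Promoters of these genes were read because several of them were low in the same samples. RefSeq promoter windows (build GRCm38.p6, 250 bases before to 50 after the start of a gene) were present for 30 of the 39 genes, among them 11 of the 14 sterol enzymes. The letters CCAAT, the box bound by the factor NF-Y, which acts together with SREBP at sterol genes, occurred on either strand in 11 of those 11 sterol enzymes, in 24 of 30 members (80%) and in 41.1% of the 27025 genes in the table. A gene counted if any of its windows had a match, and some genes have several. Of single windows, 78.6% had the letters for the sterol enzymes, 61% for the members and 37.4% for all genes. The letters TCACNCCAC, one form of the sterol regulatory element, occurred on either strand in 1 of 30 members, Hmgcs1, and in 1.44% of all genes. The E-box CACGTG occurred in 6 of 30 members (20%) and in 8.09% of all genes. Among members with an entry, the CCAAT letters were no more frequent in those called. They were present in 10 of 13 that were called against luminal cells and in 9 of 10 that were tested and not called. The called members Scd1, Scd2, Fdps, Sqle and Dgat2 had no entry and could not be counted, nor could Fads1, Gpat4 and Dgat1, which were not called. These matches describe the letters and show no binding. The 200 bases before the start are given for 3 sterol genes called in both basal populations, as examples with more than 1 CCAAT box. They are Mvd (chr8:122443423-122443622, minus strand), Nsdhl (chrX:72918321-72918520, plus strand) and Hsd17b7 (chr1:169969206-169969405, minus strand), written 5′ to 3′ on the strand of the gene with CCAAT or its reverse complement in capitals.
Mvd: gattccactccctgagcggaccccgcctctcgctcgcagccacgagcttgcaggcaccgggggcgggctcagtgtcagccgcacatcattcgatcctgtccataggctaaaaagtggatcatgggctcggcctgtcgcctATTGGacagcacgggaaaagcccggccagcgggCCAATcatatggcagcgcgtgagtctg
Nsdhl: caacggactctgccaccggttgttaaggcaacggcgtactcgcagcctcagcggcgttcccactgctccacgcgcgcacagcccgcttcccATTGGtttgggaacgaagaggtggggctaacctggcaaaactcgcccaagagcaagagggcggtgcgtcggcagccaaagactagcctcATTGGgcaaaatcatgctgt
Hsd17b7: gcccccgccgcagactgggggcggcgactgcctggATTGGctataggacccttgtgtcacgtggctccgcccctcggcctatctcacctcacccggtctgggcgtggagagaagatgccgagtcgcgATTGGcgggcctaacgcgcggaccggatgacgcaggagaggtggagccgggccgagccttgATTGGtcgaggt
Counted from the start of the gene, the boxes begin at -60 and -27 in Mvd, at -109 and -20 in Nsdhl, and at -165, -73 and -12 in Hsd17b7.

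Mvd, which makes isopentenyl diphosphate, the building block of sterols, measured 5.96, 6.11 and 5.38 in Lgr5+ basal, 6.28, 5.91 and 5.71 in Lgr5- basal and 7.13, 6.89 and 7.16 in luminal cells. All basal arrays were below all luminal arrays. Mvd was 2.37-fold lower in Lgr5+ basal (-1.25, SE 0.225, adjusted p 9.73e-04) and 2.13-fold lower in Lgr5- basal cells (-1.09, SE 0.225, adjusted p 0.00241). This dim probe differed by -0.47 and -0.43 without background correction, and still passed. The step before it, Pmvk, averaged 7.03 ± 0.13 in Lgr5+ basal, 6.87 ± 0.23 in Lgr5- basal and 7.18 ± 0.17 in luminal cells (SD, n = 3) and passed in neither comparison.

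Idi1 interconverts the isoprenoid building blocks, and was measured on a probe that the authors had set aside. It was detected on 1 Lgr5+ basal, 1 Lgr5- basal and 3 luminal arrays, with 5.18, 4.79 and 5.79 in Lgr5+ basal, 5.21, 5.33 and 5.85 in Lgr5- basal and 5.80, 6.17 and 6.30 in luminal cells. The difference passed for Lgr5+ basal cells (-0.83, SE 0.272, adjusted p 0.0268) and missed for Lgr5- basal cells (-0.62, adjusted p 0.0890), where it passed once pool was fitted as a replicate block (adjusted p 0.0250). Without Lgr5+ basal replicate 1 or 2, or luminal replicate 2 or 3, the Lgr5+ basal call was lost. The Idi1 call was also lost without background correction, at -0.23 (adjusted p 0.0740), and with no filter on dim probes (adjusted p 0.0591).

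Fdps joins the building blocks into farnesyl diphosphate, which also feeds protein prenylation. Its levels were 9.53, 9.71 and 9.63 in Lgr5+ basal cells, 9.85, 9.85 and 9.95 in Lgr5- basal cells and 10.96, 10.79 and 11.31 in luminal cells. On this probe, the brightest, the populations did not overlap, in the same order as for Scd1. Fdps was 2.63-fold lower in Lgr5+ basal (-1.40, SE 0.167, adjusted p 5.17e-05) and 2.20-fold lower in Lgr5- basal cells (-1.14, SE 0.167, adjusted p 2.37e-04). Its second, dim probe was detected on 1 Lgr5+ basal, 0 Lgr5- basal and 3 luminal arrays. It passed for Lgr5+ basal cells (-0.995, adjusted p 0.00135) and was at least 1.80-fold lower in Lgr5- basal cells (adjusted p 1.54e-04). This dim probe met the detection rule only with the luminal arrays, where it was higher. Its lower calls are therefore not independent of that rule. Between the basal populations the brightest probe differed by -0.26 and did not pass (adjusted p 0.552). The dim probe, mostly undetected in these cells, differed by 0.37 in the opposite direction and did not pass either (adjusted p 0.392).

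Sqle, squalene epoxidase, the first oxygen-dependent and a rate-limiting step of the sterol branch, measured 10.10, 9.77 and 10.15 in Lgr5+ basal, 10.70, 10.16 and 10.25 in Lgr5- basal and 11.30, 11.07 and 11.49 in luminal cells. Each population lay in its own range, narrowly so between the basal ones. It was 2.43-fold lower in Lgr5+ basal (-1.28, SE 0.199, adjusted p 3.34e-04) and 1.89-fold lower in Lgr5- basal cells (-0.92, SE 0.199, adjusted p 0.00333). A dimmer probe gave -3.06 for Lgr5+ basal minus luminal (adjusted p 1.46e-04), -1.35 for Lgr5- basal minus luminal (adjusted p 0.0250) and -1.71 for Lgr5+ minus Lgr5- basal (adjusted p 0.0992). This dimmer probe was detected on 2 of 3 Lgr5+ basal arrays and varied there, at 5.01, 5.59 and 6.97. Its difference between the basal populations was -3.11, -1.66 and -0.37 in pools 1, 2 and 3.

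Lss closes the sterol rings and was also read on a probe set aside by the authors. It averaged 6.52 ± 0.15 in Lgr5+ basal, 6.82 ± 0.19 in Lgr5- basal and 6.85 ± 0.28 in luminal cells (SD, n = 3) and passed in no comparison. Cyp51, the lanosterol demethylase, measured 8.02, 7.46 and 7.88 in Lgr5+ basal cells, 9.10, 8.12 and 8.33 in Lgr5- basal cells and 8.57, 8.46 and 8.28 in luminal cells. Lgr5+ basal values were below all others, and Lgr5- basal values overlapped the luminal ones. On the brightest probe of each gene, Cyp51 had the largest difference in size between the basal populations among the 31 genes, -0.73, with -1.08, -0.67 and -0.45 in pools 1, 2 and 3 (SE 0.256, p 0.0161, adjusted p 0.226). Against luminal cells the Lgr5+ basal difference of -0.65 narrowly missed (adjusted p 0.0563) and passed once pool was fitted as a replicate block (adjusted p 0.0213) and without Lgr5- basal replicate 1 (adjusted p 0.0202) or 2 (adjusted p 0.0493). For Lgr5- basal cells it was 0.08 (adjusted p 0.829).

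Nsdhl and Hsd17b7 act in turn to strip methyl groups from the sterol ring. Nsdhl measured 5.86, 6.05 and 6.17 in Lgr5+ basal, 6.61, 6.18 and 6.19 in Lgr5- basal and 7.41, 7.74 and 7.18 in luminal cells. No basal array reached the luminal range. It was 2.68-fold lower in Lgr5+ basal (-1.42, SE 0.196, adjusted p 1.46e-04) and 2.17-fold lower in Lgr5- basal cells (-1.12, SE 0.196, adjusted p 8.30e-04), and all 3 of its detected probes were lower in both. Without background correction the Nsdhl differences were -0.62 and -0.51, and passed. Hsd17b7 showed the same direction at a smaller size, with 8.69, 8.26 and 8.30 in Lgr5+ basal, 8.62, 8.25 and 8.75 in Lgr5- basal and 9.01, 9.27 and 9.12 in luminal cells. Its differences were -0.72 for Lgr5+ basal (SE 0.189, adjusted p 0.00948) and -0.59 for Lgr5- basal (SE 0.189, adjusted p 0.0266). The Lgr5- basal call was lost without Lgr5- basal replicate 1 or 2, or luminal replicate 2 or 3.

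The last enzymes of the route were noisier. Sc5d, which adds a double bond to the ring, measured 5.93, 5.86 and 6.43 in Lgr5+ basal, 4.98, 6.44 and 6.05 in Lgr5- basal and 6.82, 6.41 and 7.53 in luminal cells. The ranges overlapped, the difference of Lgr5- basal cells passed (-1.10, SE 0.379, adjusted p 0.0371) and the one of Lgr5+ basal cells did not (-0.85, adjusted p 0.0888). The Lgr5- basal call was lost without Lgr5- basal replicate 1 or 3, or luminal replicate 1 or 3, and with no filter on dim probes (Sc5d adjusted p 0.0943). Without Lgr5- basal replicate 1 the Lgr5+ basal difference passed (adjusted p 0.0372). Dhcr7, the enzyme that completes cholesterol, was detected on 2 arrays of each population and averaged 5.37 ± 0.51 in Lgr5+ basal, 5.38 ± 0.29 in Lgr5- basal and 6.12 ± 0.66 in luminal cells (SD, n = 3). It passed only without luminal replicate 2, which was at 5.37 beside 6.42 and 6.58, with differences of -1.13 for both Lgr5+ basal (adjusted p 0.0123) and Lgr5- basal cells (adjusted p 0.0133).

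Triglyceride assembly held the single largest difference. Dgat2, which adds the last fatty acid to diacylglycerol, measured 8.48, 8.52 and 8.19 in Lgr5+ basal cells, 8.59, 8.65 and 8.39 in Lgr5- basal cells and 12.52, 11.80 and 12.99 in luminal cells. The gap between basal and luminal arrays was wider than the whole spread within either. Dgat2 was 16.4-fold lower in Lgr5+ basal (-4.04, SE 0.265, adjusted p 5.40e-07) and 14.9-fold lower in Lgr5- basal cells (-3.89, SE 0.265, adjusted p 6.99e-07). Luminal replicate 2 had the lowest Dgat2 of the luminal arrays, and without it the differences were -4.35 for Lgr5+ basal and -4.21 for Lgr5- basal. Members went both ways on that array: Fdps, Sqle and Mvd were lowest there too, while Scap, Elovl1 and Nsdhl were highest. The part of its basal marker signal in these values was not tested. Within pools, Lgr5+ minus Lgr5- basal was -0.10, -0.13 and -0.20 (adjusted p 0.880).

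Dgat1, the other enzyme of this step, did not follow Dgat2. It measured 7.42, 6.88 and 5.98 in Lgr5+ basal, 6.12, 6.32 and 6.20 in Lgr5- basal and 6.64, 6.11 and 6.39 in luminal cells. Lgr5+ basal replicates 1 and 2 were the highest of all 9 arrays and replicate 3 the lowest. No comparison of Dgat1 passed, at 0.54 for Lgr5+ minus Lgr5- basal (adjusted p 0.485), 0.37 for Lgr5+ basal minus luminal (adjusted p 0.345) and -0.17 for Lgr5- basal minus luminal (adjusted p 0.702). Without Lgr5+ basal replicate 3, Dgat1 was the 1 member called between the basal populations, at 0.93 (adjusted p 0.0438).

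The acyltransferases that start glycerolipid synthesis were closer together. Gpam, the mitochondrial one, was detected on 0 Lgr5+ basal, 1 Lgr5- basal and 3 luminal arrays. It measured 5.24, 4.79 and 5.13 in Lgr5+ basal, 5.61, 5.04 and 5.06 in Lgr5- basal and 5.86, 6.12 and 5.61 in luminal cells. Since its probe was not above background on any Lgr5+ basal array, Gpam was at least 1.34-fold lower there (measured difference -0.81, adjusted p 0.0104). For Lgr5- basal cells the difference was -0.63 (SE 0.217, adjusted p 0.0368). This call was lost without Lgr5- basal replicate 2 or 3, or luminal replicate 1 or 2, and with no filter on dim probes. Neither Gpam difference passed without background correction, at -0.21 for Lgr5+ basal (adjusted p 0.0653) and -0.16 for Lgr5- basal cells (adjusted p 0.151). Gpat4, the enzyme of the endoplasmic reticulum, listed as Agpat6, averaged 10.47 ± 0.34 in Lgr5+ basal, 10.23 ± 0.21 in Lgr5- basal and 10.93 ± 0.66 in luminal cells (SD, n = 3). It passed for Lgr5- basal minus luminal (-0.70) in the fit that had the pool as a replicate block (adjusted p 0.0220) and not without the block (adjusted p 0.0890). Without luminal replicate 3, it passed for both Lgr5+ basal (-0.81, adjusted p 0.0279) and Lgr5- basal cells (-1.04, adjusted p 0.00918). Lpin1, the phosphatase that makes diacylglycerol, averaged 6.55 ± 0.18 in Lgr5+ basal, 6.85 ± 0.12 in Lgr5- basal and 6.90 ± 0.19 in luminal cells (SD, n = 3) and passed in no comparison.

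Between the basal populations, the direction by role can be described, though no member passed. Among the sterol enzymes 9 of 11 differences, Lgr5+ minus Lgr5- basal, were negative, with a median of -0.21, and among all tested genes 5865 of 12670 were negative. Among desaturases and elongases 4 of 7 were negative (median -0.20), and in the SREBP system 1 of 5 (median 0.10). These counts take the brightest probe of each gene. The sign depended on the probe for Elovl1 (0.07 on the brightest, -0.74, -0.57 and 0.15 on the others) and Fads2 (-0.36 and 0.07). It did so too for Insig2 (0.10 and -0.33), Fdps (-0.26 and 0.37) and Lpin1 (-0.31 and 0.07). On the brightest probes the range over the 31 genes was -0.73 for Cyp51 to 0.54 for Dgat1. Pools did not always share the sign: Sc5d differed by 0.95, -0.58 and 0.38, and Dhcr7 by -0.81, 0.65 and 0.15, in pools 1, 2 and 3.

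**Figure D3:**
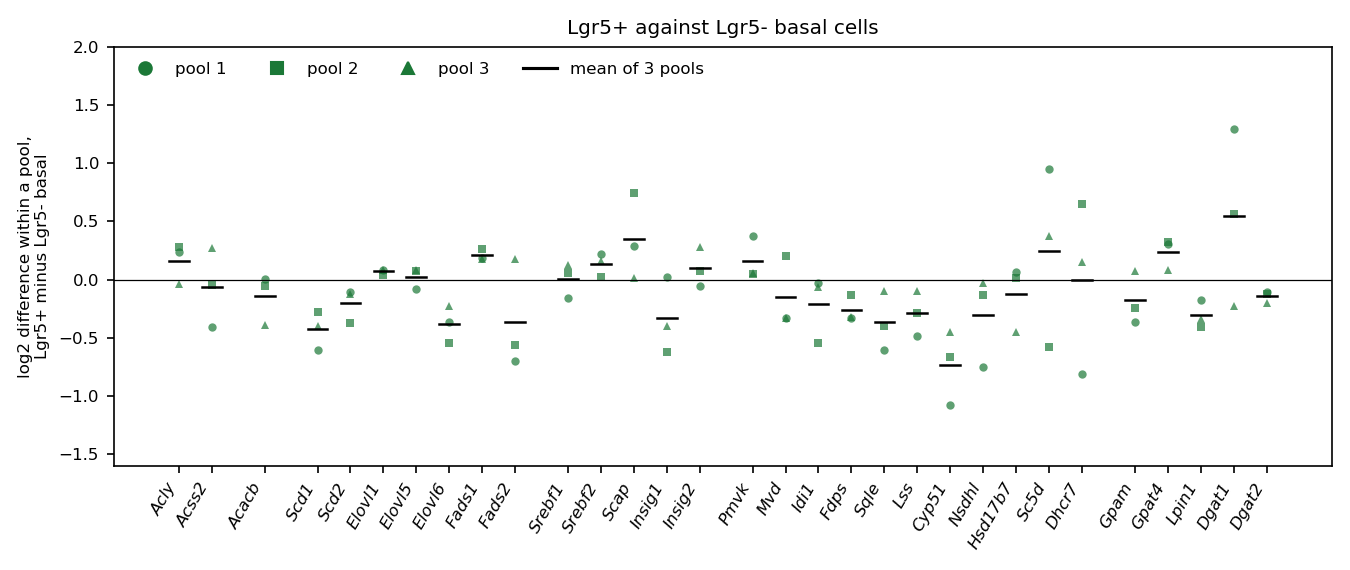
Log2 difference of Lgr5+ minus Lgr5- basal cells (vertical axis) within each pool for the 31 tested genes, ordered by role. Symbols mark the pool and lines the mean of 3 pools. The means lie between -0.73 for Cyp51 and 0.54 for Dgat1, and no gene passed an adjusted p of 0.05.

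Other lipid genes were set beside the members. Of 25 further tested genes of lipid synthesis and the SREBP pathway, 10 were lower and 2 higher in Lgr5+ basal cells, and 9 lower and 3 higher in Lgr5- basal cells, than in luminal cells. The shares over all genes were 24.2% lower and 24.6% higher in Lgr5+ basal, and 22.5% lower and 21.7% higher in Lgr5- basal cells. Elovl4, an elongase of very long chains, was the exception in size: it measured 9.59, 9.52 and 9.04 in Lgr5+ basal and 10.06, 10.21 and 10.00 in Lgr5- basal cells, and was detected on no luminal array (4.86, 4.89 and 4.81). It was at least 14.5-fold higher in Lgr5+ basal (adjusted p 3.46e-08) and at least 23.7-fold higher in Lgr5- basal cells (adjusted p 2.15e-08). Acsl5, which activates fatty acids, followed the members at -1.53 for Lgr5+ basal (adjusted p 1.12e-05) and -1.53 for Lgr5- basal (adjusted p 1.09e-05).

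Among 17 glycerolipid and phospholipid enzymes, 11 were lower and 2 higher in Lgr5+ basal cells, and 10 lower and 1 higher in Lgr5- basal cells. Lower calls made up 64.7% and 58.8% of this list, against 24.2% and 22.5% of all genes. Chpt1, the last enzyme of phosphatidylcholine synthesis, differed from luminal by -1.91 in Lgr5+ basal (adjusted p 2.05e-05) and -1.30 in Lgr5- basal cells (adjusted p 3.53e-04). Ptdss2, a phosphatidylserine synthase, differed by -1.75 in Lgr5+ basal (adjusted p 7.60e-05) and -1.74 in Lgr5- basal cells (adjusted p 7.84e-05). Agpat4, an acyltransferase that acts on lysophosphatidic acid, was detected on 1 luminal array and was higher, by 3.42 in Lgr5+ basal (adjusted p 5.09e-07) and 2.91 in Lgr5- basal cells (adjusted p 1.63e-06).

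Genes that bring in or store lipid held calls in both directions. Of 16 tested genes of fatty acid uptake and lipid droplets, 7 were lower and 5 higher in Lgr5+ basal cells, and 6 lower and 5 higher in Lgr5- basal cells, than in luminal cells. Higher calls were 31.2% of the list in each basal population, near the 24.6% and 21.7% of all genes, and lower calls were 43.8% and 37.5%, against 24.2% and 22.5%. Btn1a1, butyrophilin, which coats milk fat droplets at secretion, was lower in both, with differences of -4.28 in Lgr5+ basal (adjusted p 3.33e-07) and -4.50 in Lgr5- basal cells (adjusted p 2.41e-07). Pnpla2, the lipase of stored triglyceride, differed by -1.59 in Lgr5+ basal (adjusted p 3.21e-05) and -1.61 in Lgr5- basal cells (adjusted p 2.96e-05). Vldlr, a receptor of triglyceride-rich lipoproteins, measured 8.38, 8.47 and 8.94 in Lgr5+ basal, 9.55, 9.47 and 9.56 in Lgr5- basal and 6.91, 7.30 and 7.04 in luminal cells. It was the 1 gene of these lipid lists called between the basal populations, at -0.93 for Lgr5+ minus Lgr5- basal (adjusted p 0.0479).

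Of 9 tested genes of cholesterol uptake, esters and efflux, 5 were higher and 2 lower in each basal population than in luminal cells. Among all genes 24.6% were higher and 24.2% lower in Lgr5+ basal, and 21.7% higher and 22.5% lower in Lgr5- basal cells. Apoe, the apolipoprotein that carries cholesterol out of cells, measured 13.33, 13.45 and 13.41 in Lgr5+ basal, 13.52, 13.51 and 13.26 in Lgr5- basal and 7.78, 8.92 and 7.66 in luminal cells. Its differences were 5.28 for Lgr5+ basal (adjusted p 1.72e-07) and 5.31 for Lgr5- basal cells (adjusted p 1.63e-07). Lrp1, a receptor of remnant lipoproteins, was not detected in luminal cells and was at least 5.38-fold higher in Lgr5+ basal (adjusted p 7.65e-07) and at least 4.18-fold higher in Lgr5- basal cells (adjusted p 2.07e-06).

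Fatty acid oxidation had 14 tested genes, of which 7 were lower and 2 higher in Lgr5+ basal cells, and 6 lower and 1 higher in Lgr5- basal cells. Lower calls were 50% and 42.9% of the list, against 24.2% and 22.5% of all genes, and higher calls 14.3% and 7.14%, against 24.6% and 21.7%. Cpt2, which completes the import of fatty acids into mitochondria, differed by -1.67 in Lgr5+ basal (adjusted p 8.30e-05) and -1.44 in Lgr5- basal cells (adjusted p 2.48e-04). Acadl, the long-chain acyl-CoA dehydrogenase, differed by -1.86 in Lgr5+ basal (adjusted p 1.79e-04) and -0.999 in Lgr5- basal cells (adjusted p 0.0104). Etfdh, which passes electrons from this pathway to the respiratory chain, was higher, by 0.60 in Lgr5+ basal (adjusted p 0.0389) and 1.17 in Lgr5- basal cells (adjusted p 0.00114).

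**Figure D4:**
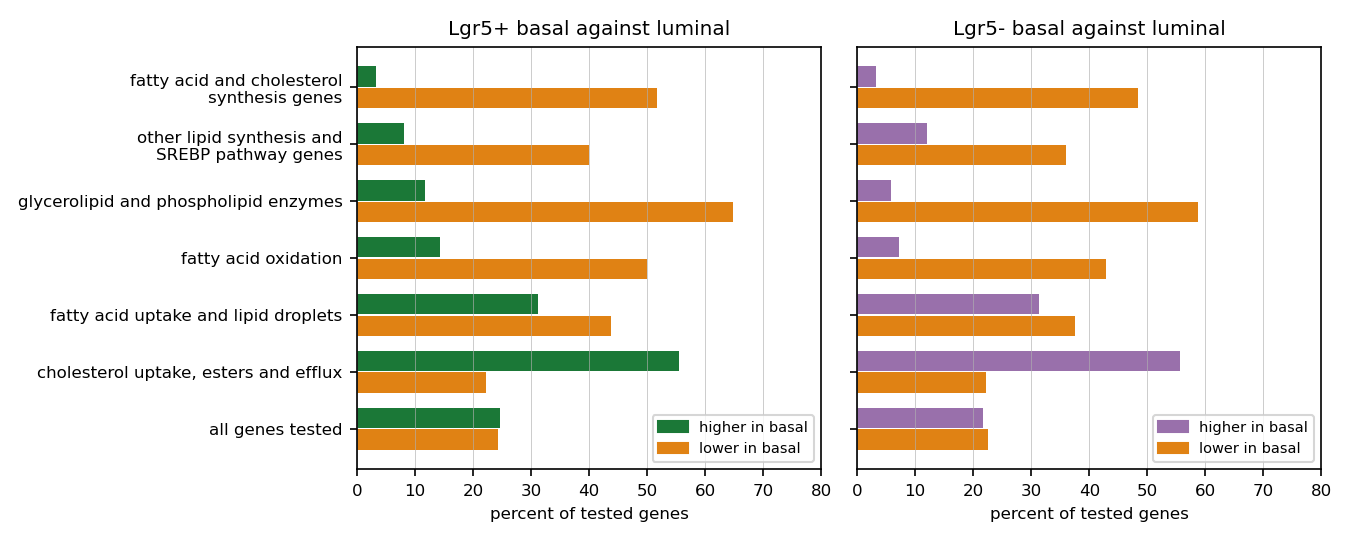
Percent of tested genes (horizontal axis) called higher or lower in Lgr5+ basal (left panel) and Lgr5- basal cells (right panel) than in luminal cells, for the fatty acid and cholesterol synthesis genes, 5 other lipid lists and all 12670 genes. Lower calls made up 51.6% and 48.4% of the synthesis genes and 24.2% and 22.5% of all genes, while the 9 genes of cholesterol uptake, esters and efflux had 55.6% higher in both panels.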

How the data were processed

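RNA of 9 sorted samples was measured on Illumina MouseWG-6 BeadChips, after labelling with biotin by the Ambion MessageAmp kit per the labels' protocols. GenomeStudio and limma are the tools in the submitters' processing notes, which give no versions. The raw table deposited by the authors holds probe intensities, neither background-corrected nor normalized, and a detection fraction that rose with intensity on every array, although its header calls it a p-value. Probes flagged by the authors were set aside for lack of expression or poor annotation, per the file headers. The deposited log2 values are the authors' background-corrected, quantile-normalized intensities: recomputation from the raw table (normexp, offset 16) differed by at most 0.0284.

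The brightest detected probe stood for a gene (26391 of 45281 probes were flagged, and 2 members, Idi1 and Lss, rest on one). Groups came from the labels. All 9 arrays were fitted with limma 3.58.1 in R 4.3.3, two-sided, and p-values were adjusted over 12670 genes by Benjamini-Hochberg (6 residual degrees of freedom). Other probes of a member were adjusted over 17712 probes. The fit was tested on simulated data with independent arrays, which does not cover the correlation within pools given below. With 3 arrays per group, their number limits the precision. Levels of different probes are not compared. A probe not detected on any array of a group gives a bound on its fold.

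Members, gene lists and tests were chosen with earlier results of these data known. All members could be named, with values on all arrays for those called, as could the 2 called genes of smallest p in each other lipid list and comparison. Means with SD are given for the members not called.

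The pool number in the labels is shared by the 3 populations. Residuals of samples with the same number correlated at 0.344, 0.228 and 0.442 (Lgr5+ with Lgr5- basal), 0.111, 0.0900 and 0.136 (Lgr5+ basal with luminal) and 0.297, 0.109 and 0.364 (Lgr5- basal with luminal) for pools 1, 2 and 3. Pools 1 and 2 were on BeadChip 1 and pool 3 was on the other, which holds 1 array per group and gives no test of its own. Alternatives were other background, normalization and probe rules, blocks for pool and BeadChip, and leaving out each array. Of the names, 9 members have no RefSeq promoter entry in the table used: Scd1, Scd2, Fads1, Fdps, Fdft1, Sqle, Gpat4, Dgat1 and Dgat2.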

Additional observations from a re-analysis of the deposited data

How the results depend on the processing

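No difference of a tested member changed sign with a call under any of the 20 alternatives. Dgat2, Scd1, Elovl1, Elovl6, Mvd, Fdps, Sqle and Nsdhl kept their calls in both basal populations under all of them, as did Acss2 in Lgr5+ basal and Scap in Lgr5- basal cells. Of the single-gene values, 72 lost a call, 29 gained one, 21 without a call moved by more than the spread between replicates and the other 1732 did none of these. Median centring in place of quantile normalization left 9 members lower in Lgr5+ basal and 9 in Lgr5- basal cells than in luminal cells, with 0 higher in both, and 53 genes called in all between the basal populations (20 higher and 33 lower, 37.7% higher against 48.0% with quantile normalization). The cause was not tested. Of all 12670 genes, median centring left 1831 lower in Lgr5+ basal and 1759 in Lgr5- basal cells than in luminal cells. With pool as a replicate block 16 members were lower in Lgr5+ basal and 17 in Lgr5- basal cells, and 1 and 2 were higher. Of all 12670 genes, 3313 and 3132 were lower and 3405 and 3041 higher with that block. BeadChip as a block also gave 2 higher in Lgr5- basal cells, and 15 and 17 lower, where 3275 and 3055 of all genes were lower. The pool block changed the calls of Scap and Cyp51 (Lgr5+ basal) and of Acacb, Idi1 and Gpat4 (Lgr5- basal), given with their values above, and no other call of a member. The BeadChip block changed the same calls except that of Cyp51. Within BeadChip 1, with 2 arrays per group, 388 genes were called between the basal populations. Against luminal cells 13 members were lower in each basal population, 0 were higher in Lgr5- basal and 1, Dgat1, in Lgr5+ basal cells. Of all 12670 genes, 2809 were lower and 2976 higher in Lgr5+ basal, and 2423 lower and 2400 higher in Lgr5- basal cells.

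Leaving out 1 array moved the genes called between the basal populations from 52 to 649, against 127 on all arrays. The counts were 57, 61 and 649 without replicate 1, 2 and 3 of the Lgr5+ basal arrays, and 52 with either replicate 1 or 2 of the Lgr5- basal arrays left out. Members called higher ranged from 0 to 1 between the basal populations, from 1 to 2 for Lgr5+ basal and from 1 to 2 for Lgr5- basal against luminal cells, the second gene being Dgat1 without Lgr5+ basal replicate 3 and Acacb without luminal replicate 2. Members called lower ranged from 12 to 17 in Lgr5+ basal and from 12 to 16 in Lgr5- basal cells. They were 15 and 14 without luminal replicate 2. Of all 12670 genes, those called lower ranged from 2615 to 2988 in Lgr5+ basal and from 2388 to 2911 in Lgr5- basal cells. Signal over background limits Gpam, Idi1 and Dhcr7, which were detected on 4, 5 and 6 of 9 arrays, and without background correction the median difference of the members from luminal was -0.35 for Lgr5+ basal and -0.27 for Lgr5- basal cells.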
